A study of Rattus norvegicus with 4 samples.

Results

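The sodium potassium pump genes described here are 6 protein-coding genes found by symbol among the 33506 genes of the deposited count table. They are the beta subunit genes Atp1b1, Atp1b2 and Atp1b3 and the FXYD genes Fxyd2, Fxyd6 and Fxyd7. Lumbar dorsal root ganglia (DRG), the clusters of sensory neuron cell bodies and glia beside the spinal cord, were compared between wild-type neonatal Wistar rats given cisplatin, a platinum chemotherapeutic, at 0.3 mg/kg and rats given vehicle (phosphate-buffered saline). Injections were intraperitoneal on postnatal days 14 and 16. The study's methods place collection on postnatal day 23, but the labels put it 16 days after treatment. Each group had 2 libraries, each from 2 to 5 pooled lumbar DRGs, and no source used here gives the sex of the rat for a given library.

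The sodium potassium pump exchanges intracellular sodium for extracellular potassium at the cost of ATP, and so restores the gradients that action potentials run down. A catalytic alpha subunit needs a beta subunit, a glycoprotein with a single membrane span, to fold and reach the plasma membrane. A small FXYD protein can join the complex and tune its affinity for ions. Sensory neurons rely on the pump to recover from firing, and glia rely on it to clear extracellular potassium.

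Total counts per library ranged from 21384801 to 25618417, and no pair of libraries agreed within the sampling noise. The closest pair, vehicle replicate 2 and cisplatin replicate 2, had 43.5 as its chi-square per degree of freedom. That value was 109 between the vehicle-treated libraries and 143 between the cisplatin-treated libraries, so the closest pair crossed the treatments. The 8 neuron markers all had counts, and their summed level was 9722 and 7942 CPM (counts per 1000000 counts of the genes tested, scaled with TMM factors) after vehicle and 14830 and 10329 CPM after cisplatin. The 6 myelinating Schwann cell markers separated the libraries by replicate number instead, with 60451 and 47528 CPM in vehicle and cisplatin replicate 1 and 155391 and 136314 CPM in vehicle and cisplatin replicate 2. Vehicle replicate 1 stood apart in 2 further lists: 4 measured skeletal muscle markers summed to 523 CPM there against 16.7 to 55.1 CPM elsewhere, and 6 central glia markers to 121 CPM against 20.3 to 35.3 CPM. Over the remaining lists, the summed level in cisplatin-treated relative to vehicle-treated libraries was 1.07 for large-fibre neurons, 1.33 for nociceptors, 1.11 for satellite glia, 0.621 for fibroblasts and meninges, 0.805 for endothelium and pericytes, and 1.02 for macrophages and leukocytes. Claudin-5, a defining endothelial marker, was at 0 in every library. The endothelial markers Cdh5 and Flt1 of the same list were detected in all, with 654 to 849 and 403 to 577 counts. The mitochondrial chromosome took 1.53% and 2.58% of counts after vehicle and 5.46% and 4.78% after cisplatin, and its part in the results was not tested. Replicate numbers follow the sample titles, while the deposited column names number the cisplatin-treated libraries differently. Pairs of values below give replicate 1 before replicate 2. In whole ganglia, fewer cells of a type and less RNA per cell cannot be told apart.

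All 6 genes passed the filter on low counts. Atp1b3 alone among them had an annotated pseudogene copy, AABR07070238.1, which held 9 to 27 counts per library. The unit FPKM, which divides counts by gene length and by depth, allows levels of different genes to be set side by side. By median FPKM over the 4 libraries, Fxyd2 stood first at 819 FPKM, with a range of 593 to 1294 FPKM. It was followed by Fxyd7 at 461 FPKM (382 to 660 FPKM), Atp1b1 at 396 FPKM (319 to 536 FPKM) and Atp1b3 at 349 FPKM (318 to 421 FPKM). Fxyd2 exceeded the other members in each of the 4 libraries, while the ranges of Fxyd7, Atp1b1 and Atp1b3 overlapped from neighbour to neighbour. Fxyd6 at 224 FPKM (133 to 297 FPKM) and Atp1b2 at 28.8 FPKM (28.0 to 30.9 FPKM) lay below them without overlap. The place of Fxyd2 rests on its deposited length of 258 bases, the shortest of the 6. Whether that gene model leaves out untranslated bases was not tested.

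Atp1b1, the beta subunit found in most tissues, and Atp1b3 supplied nearly all of the beta transcripts. Atp1b1 took 55.4% and 47.8% of the summed beta FPKM after vehicle, and 54.3% and 46.4% after cisplatin. Atp1b3 took 41.2% and 47.8% after vehicle, and 42.6% and 49.7% after cisplatin. Atp1b2, a subunit known from glia as the adhesion molecule on glia, took 3.13% to 4.38% in every library. The shares differed more between replicate numbers than between treatments, and the difference of group means was -1.31 percentage points for Atp1b1, -0.331 for Atp1b2 and 1.64 for Atp1b3 (two-sided exact permutation test, n = 2 each, p = 0.667 for each). With 2 libraries against 2, the smallest p this test can give is 0.333.

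Of the summed FPKM of the 3 FXYD members, Fxyd2 took 58.6% and 45.3% after vehicle and 62.0% and 52.3% after cisplatin. Fxyd7 took 29.1% to 31.9%, and Fxyd6 took the remainder. In these FPKM shares the groups overlapped for all 3. The difference of group means was 5.17 percentage points for Fxyd2, -5.67 for Fxyd6 and 0.50 for Fxyd7 (two-sided exact permutation test, n = 2 each, p = 0.667, 0.667 and 1.0). SDs within a group were 6.83 to 9.39 for Fxyd2. The FPKM shares rest on the deposited length of 258 bases for Fxyd2. Of the summed counts, Fxyd2 took 26.3% and 15.7% after vehicle and 32.1% and 20.5% after cisplatin. By counts Fxyd7 took 36.0% and 30.55% after vehicle and 45.3% and 33.0% after cisplatin, so its share was less even there.

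**Figure D1:**
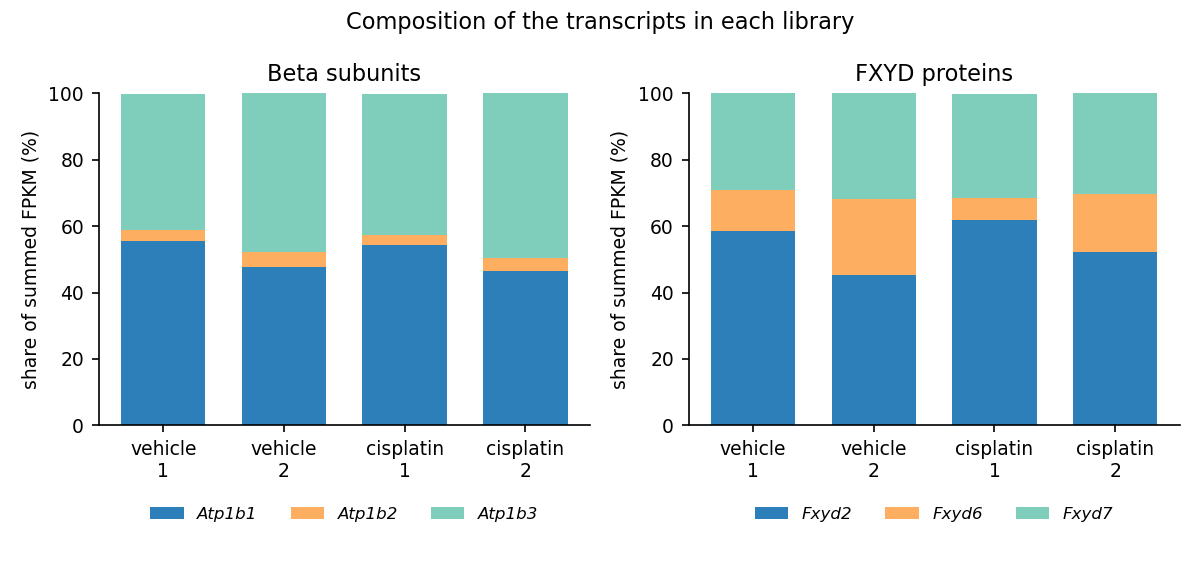
Share of summed FPKM (%, vertical axis) taken by each beta subunit gene (left) and each FXYD gene (right) in each of the 4 libraries (horizontal axis). Atp1b1 and Atp1b3 fill most of every beta bar, and the Fxyd6 share was larger in both replicate 2 libraries, at 22.7% and 17.3%, than in both replicate 1 libraries, at 12.3% and 6.38%.

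Atp1b2 and Atp1b3 could also be set side by side by the letters upstream of their starts, which RefSeq gives on build GRCr8 for 3 of the 6 genes. The sequences are shown because they belong to the least and one of the most abundant beta transcripts. Capitals mark matches, on either strand, to the GC box GGGCGG, the CCAAT box CCAAT, the TATA letters TATAAA and the core TGACGT of the cyclic AMP response element.
Atp1b2, chr10:54823709-54823958, minus strand: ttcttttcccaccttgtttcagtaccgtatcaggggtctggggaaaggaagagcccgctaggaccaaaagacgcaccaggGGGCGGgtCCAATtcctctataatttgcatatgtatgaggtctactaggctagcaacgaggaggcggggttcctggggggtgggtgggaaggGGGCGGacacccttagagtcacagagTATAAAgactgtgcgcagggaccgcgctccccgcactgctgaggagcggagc
Atp1b3, chr8:105821152-105821401, minus strand: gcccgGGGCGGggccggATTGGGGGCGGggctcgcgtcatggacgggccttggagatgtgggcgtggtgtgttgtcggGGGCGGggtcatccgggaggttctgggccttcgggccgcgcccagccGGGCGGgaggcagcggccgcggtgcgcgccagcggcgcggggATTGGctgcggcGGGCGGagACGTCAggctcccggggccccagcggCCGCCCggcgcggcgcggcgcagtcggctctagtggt
The Atp1b3 stretch was 79.6% G and C with 6 GC boxes, 2 CCAAT boxes, 1 cyclic AMP response core and 0 TATA matches. The Atp1b2 stretch was 58% G and C with 2 GC boxes, 1 CCAAT box and 1 TATA match. Over all 33469 upstream stretches of 250 bases, 30.5% held a GC box, 34% a CCAAT box, 12.9% the TATA letters and 6.95% the cyclic AMP response core. The Fxyd6 stretch, at 55.2% G and C, held none of the 4 motifs. A match is a description of the letters and not evidence of a bound site.

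After cisplatin, none of the 6 genes was called, while the CPM of Fxyd2, Fxyd7 and Atp1b3 did not overlap between the groups and was higher after cisplatin. Calls required a change of at least 1.5-fold and, after Benjamini-Hochberg adjustment over 14719 protein-coding genes, p under 0.05 in edgeR's quasi-likelihood test. That rule called 0% of all genes tested as higher and 0.00679% as lower, or 1 gene. Of the members, 0 were called by edgeR, 0 passed an unadjusted p under 0.05 with that fold change (2.77% of all genes higher, 5.18% lower), and 0 were called by DESeq2 (0.34% higher, 0.611% lower) or by limma on log2 FPKM. With the replicate number as a block, which the labels do not tie to a shared litter or day, 1 member was called, Fxyd2 (3.36% of all genes higher, 7.05% lower), and with the length correction added 0 were (1.73% higher, 4.82% lower). Both cisplatin-treated libraries lay above both vehicle-treated ones in 3 of 6 members, beside 20.6% of all genes tested. They lay below in 0 of 6, beside 21.2%. The median log2 fold change of the members was 0.19 and that of all genes tested -0.01. Without vehicle replicate 1, the library with muscle and central glia transcripts, the log2 fold change was 0.44 for Atp1b1, 0.02 for Atp1b2, 0.28 for Atp1b3, 0.86 for Fxyd2, -0.50 for Fxyd6 and 0.47 for Fxyd7, and none was called.

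**Figure D2:**
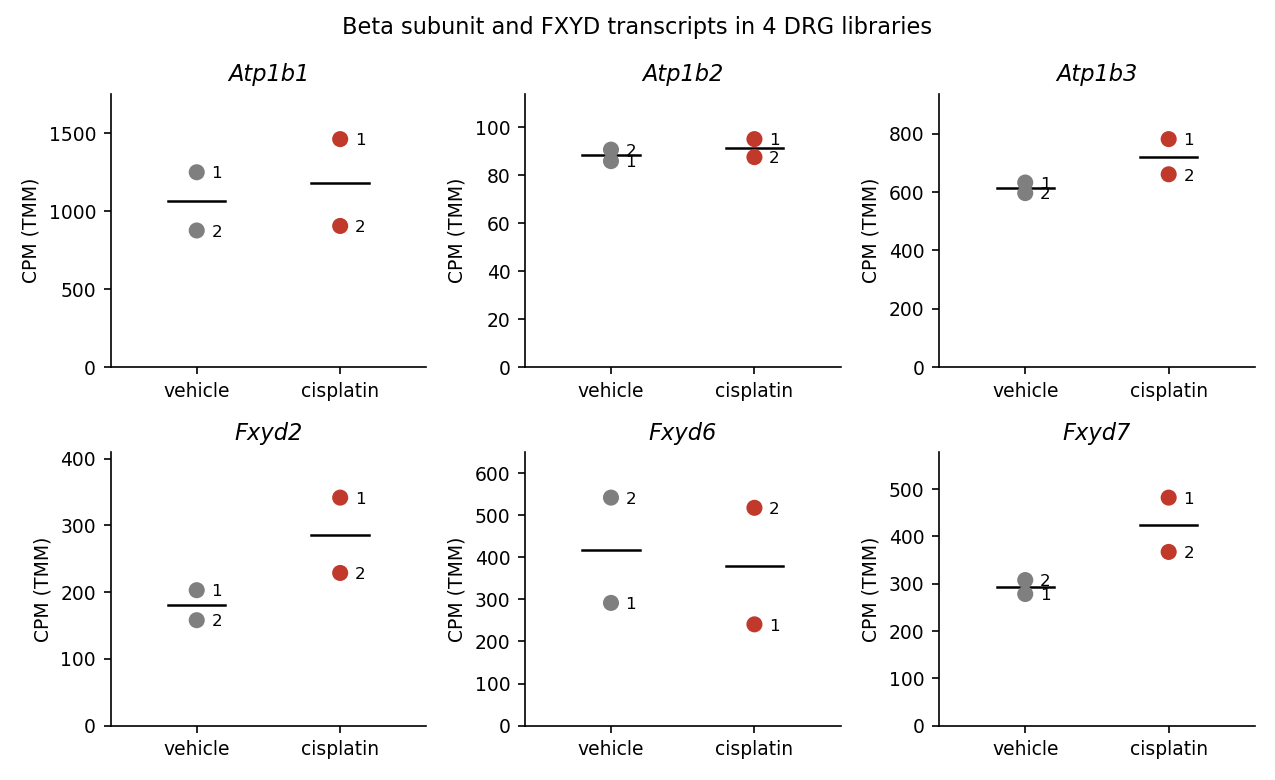
TMM-scaled CPM (vertical axes, starting at 0) of each of the 6 genes in vehicle-treated (grey) and cisplatin-treated (red) libraries. Each point is 1 library with its replicate number, and bars are group means of 2 libraries. Fxyd2, Fxyd7 and Atp1b3 show no overlap of the groups, and in Atp1b1 and Fxyd6 the points divide by replicate number.

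Fxyd2 (ENSRNOG00000016469; chromosome 8, 49710477 to 49716955, Rnor_6.0) encodes the gamma subunit, first known from kidney and also present in sensory neurons. It had 203 and 158 CPM after vehicle and 341 and 229 CPM after cisplatin. The groups did not overlap, although cisplatin replicate 2 lay close to vehicle replicate 1. Its log2 fold change was 0.66 (standard error 0.28, 95% interval -0.05 to 1.37, adjusted p = 0.533 from edgeR). Gene length moved with this value: the 410 genes tested of at most 500 bases had a median log2 fold change of 0.34, and with a length correction Fxyd2 was at 0.29 (adjusted p = 0.86 from edgeR). Without cisplatin replicate 1, the library with the highest neuron markers, the uncorrected value was 0.35.

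Fxyd7 (ENSRNOG00000021067; chromosome 1, 89474601 to 89483988), a regulator known mainly from neurons, had 278 and 308 CPM after vehicle and 482 and 367 CPM after cisplatin. The groups did not overlap. The log2 fold change was 0.54 (standard error 0.25, 95% interval -0.08 to 1.15, adjusted p = 0.549 from edgeR). The 1143 genes of over 500 and up to 1000 bases, which include Fxyd7, had a median of 0.26, and with the length correction Fxyd7 was at 0.28 (adjusted p = 0.838 from edgeR). Without cisplatin replicate 1 the uncorrected value was 0.33.

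Fxyd6 (ENSRNOG00000016412; chromosome 8, 49676540 to 49703419), also called phosphohippolin, is a regulator known from nervous tissue. It had 292 and 542 CPM after vehicle and 241 and 518 CPM after cisplatin. The libraries fell into a high and a low pair by replicate number, and each pair held both treatments. The log2 fold change was -0.14 (standard error 0.47, 95% interval -1.32 to 1.05, adjusted p = 0.936 from edgeR). It turned to 0.38 without vehicle replicate 2 and to 0.33 without cisplatin replicate 1. The 6 myelinating Schwann cell markers, summed, ranked the 4 libraries in the same order as Fxyd6, and their part in its values was not tested.

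Fxyd2 and Fxyd6 are neighbours on the same strand, 7057 bases apart in the deposited annotation, and replicate 1 exceeded replicate 2 for Fxyd2 but lay under it for Fxyd6 in both groups. For each Fxyd2 count there were 1.44 and 3.43 Fxyd6 counts after vehicle, and 0.705 and 2.26 after cisplatin. The ratio was lowest in cisplatin replicate 1, the library with the highest neuron and the lowest myelin marker sum. The groups overlapped (difference of means -0.95, two-sided exact permutation test, n = 2 each, p = 0.667).

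Atp1b3 (ENSRNOG00000011501; chromosome 8, 104190032 to 104221342) had 633 and 597 CPM after vehicle and 782 and 661 CPM after cisplatin. The groups did not overlap, with a gap of less than the spread between the cisplatin-treated libraries. The log2 fold change was 0.23 (standard error 0.25, 95% interval -0.40 to 0.86, adjusted p = 0.78 from edgeR), and 0.11 without cisplatin replicate 1.

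Atp1b1 (ENSRNOG00000002934; chromosome 13, 82737159 to 82758004) had 1249 and 876 CPM after vehicle and 1461 and 905 CPM after cisplatin. Replicate 1 was high and replicate 2 low in both groups, so that the groups overlapped. The log2 fold change was 0.16 (standard error 0.37, 95% interval -0.78 to 1.09, adjusted p = 0.907 from edgeR). It turned to -0.08 without vehicle replicate 2 and to -0.23 without cisplatin replicate 1. The gene overlaps Nme7 on the other strand by 185 bases, and Nme7 had 215 to 283 counts beside 17234 to 37115 counts of Atp1b1. Whether counting used the strand is not given in the sources used here.

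Atp1b2 (ENSRNOG00000011227; chromosome 10, 56205625 to 56211891) varied least, with 85.8 and 90.6 CPM after vehicle and 95.02 and 87.5 CPM after cisplatin. The groups overlapped. The log2 fold change was 0.05 (standard error 0.18, 95% interval -0.39 to 0.49, adjusted p = 0.938 from edgeR). This was the narrowest interval of the 6 genes.

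**Figure D3:**
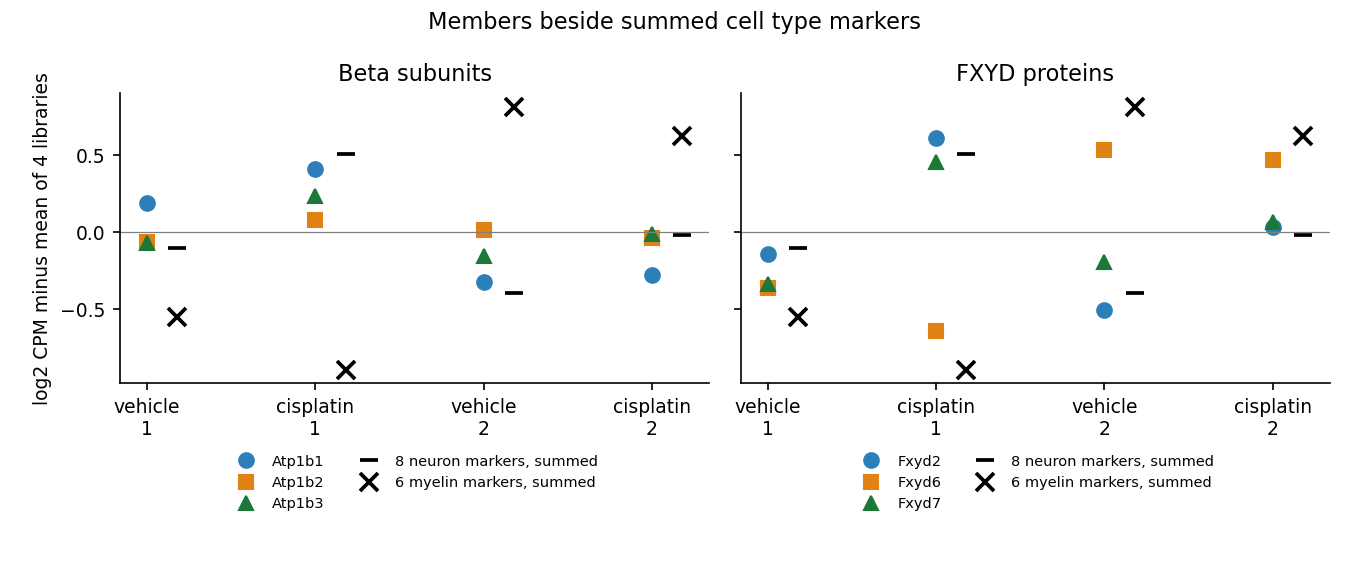
Log2 CPM minus its mean over the 4 libraries (vertical axis) for the beta subunit genes (left) and the FXYD genes (right), with the libraries ordered by replicate number (horizontal axis). Black bars give the summed neuron markers and crosses the summed myelin markers, centred in the same way. Fxyd6 lies above 0 in both replicate 2 libraries, as do the crosses. Fxyd2, Fxyd7 and every beta subunit gene are highest in cisplatin replicate 1, as are the black bars.

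Neuron marker levels are given beside the members. All 8 neuron markers had log2 fold changes above 0, with a median of 0.45, and 0 were called. For 100 counts of these markers, Atp1b1 stood at 12.84 and 11.02 after vehicle, and at 9.85 and 8.76 after cisplatin. Both cisplatin-treated libraries were lower. Atp1b2, at 0.883 and 1.14 counts against 0.641 and 0.847, and Atp1b3, at 6.51 and 7.51 counts against 5.27 and 6.40, were lower in the same way. Fxyd2 remained slightly higher, with 2.09 and 1.99 counts against 2.30 and 2.21. Fxyd7 overlapped between the groups, with 2.86 and 3.88 counts against 3.25 and 3.56. Fxyd6 overlapped as well, with 3.0 and 6.82 counts against 1.62 and 5.01. The summed level of the neuron markers was itself 1.42 times as high after cisplatin. How many of all genes tested lay lower or higher on this scale was not counted, so these positions are a description only. With libraries scaled to the neuron markers in edgeR, a setting chosen after seeing the data, the log2 fold change was -0.36 for Atp1b1, -0.44 for Atp1b2, -0.26 for Atp1b3, 0.15 for Fxyd2, -0.57 for Fxyd6 and 0.01 for Fxyd7. This scaling moved the median of all genes tested to -0.49, so that relative to that median only Fxyd6 was lower. None of these values was called.

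The other FXYD, beta subunit and proton pump genes described here numbered 8, of which 4 passed the filter, 0 were called and 2 had log2 fold changes above 0, with a median of 0.34. The 4 tested were Fxyd1, Fxyd3, Fxyd5 and Atp4a, the catalytic subunit of the gastric proton pump, which had 0.813 to 1.44 CPM.

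Fxyd7 lies in a cluster on chromosome 1 between Fxyd5, 348 bases away, and Fxyd1, 210 bases away, all on the minus strand. Fxyd1 encodes phospholemman, a pump regulator of muscle and glia, and had 39.9 and 67.5 CPM after vehicle and 86.2 and 101 CPM after cisplatin. Its log2 fold change was 0.81 (standard error 0.29, unadjusted p = 0.0358, adjusted p = 0.522 from edgeR), and 0.51 with the length correction. Fxyd5, also called dysadherin, had 6.43 and 9.80 CPM against 14.8 and 14.5 CPM, a log2 fold change of 0.86 (standard error 0.28, unadjusted p = 0.0245, adjusted p = 0.522 from edgeR), and 0.66 with the correction. In both genes the groups did not overlap. Fxyd3, at the far end of the cluster, had 65 and 76 counts against 41 and 97. Whether reads of one gene in this cluster were counted for its neighbour was not tested.

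**Figure D4:**
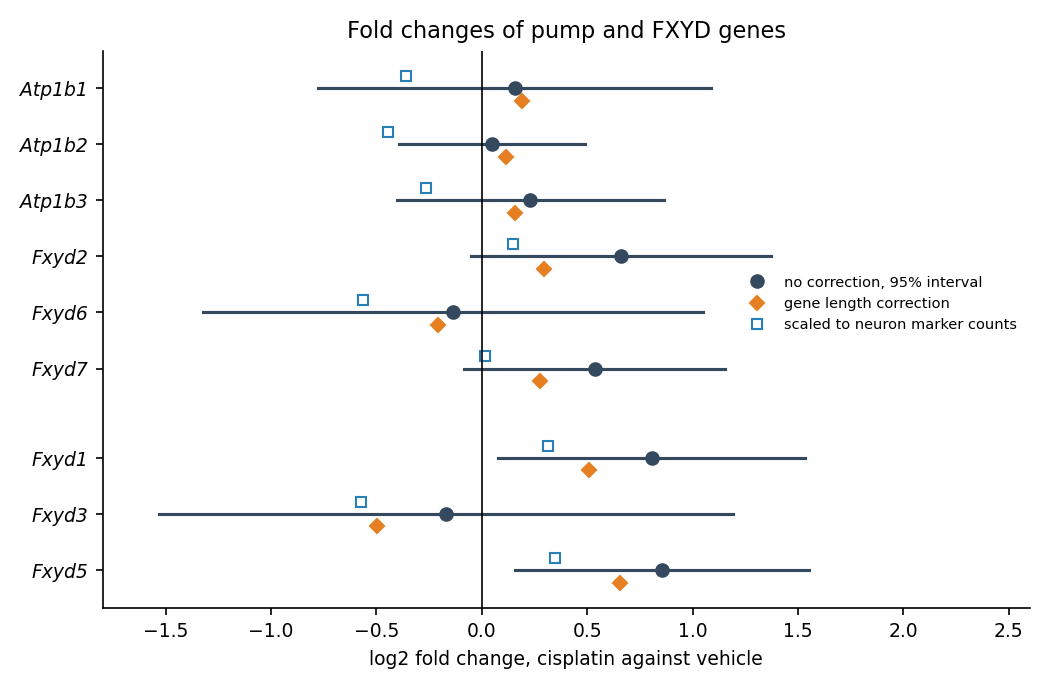
Log2 fold change of cisplatin against vehicle (horizontal axis) for the 6 genes and 3 further FXYD genes. Dark points with bars are edgeR values with 95% intervals, orange diamonds the values with the gene length correction, and open blue squares the values with libraries scaled to neuron markers. Of the intervals drawn, those of Fxyd1 and Fxyd5 lie above 0, and the diamonds of Fxyd2 and Fxyd7 lie closer to 0 than their points.

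The genes of that list under the filter were Atp1b4, Fxyd4, Atp4b and Atp12a. Atp1b4 had 20 counts in vehicle replicate 1, the library with the highest muscle markers, and 1 to 3 counts in the others. Fxyd4 had 1 count in each vehicle-treated library and 0 in the cisplatin-treated libraries, where a count of 0 allows up to 0.118 and 0.128 CPM (3 counts, covering counting error only).

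Of 10 partners and regulators of the pump, 10 were tested, 0 were called and 4 had log2 fold changes above 0, with a median of -0.08. Fstl1, a secreted protein that binds the alpha subunit, had 1004 and 810 CPM after vehicle and 1077 and 747 CPM after cisplatin (log2 fold change 0.01, edgeR adjusted p = 0.995). Ank2, a membrane scaffold, had 404 and 201 CPM against 173 and 127 CPM, a log2 fold change of -1.01 (unadjusted p = 0.042, adjusted p = 0.523 from edgeR). With the length correction it was at -0.54. Ank3 had 217 and 234 CPM against 182 and 192 CPM, and its log2 fold change of -0.27 became 0.14 with the correction. Nkain4 had 25.4 and 20.8 CPM against 38.9 and 25.5 CPM, and its log2 fold change was 0.48, or 0.35 with the correction. Sgk1 had 64.4 and 97.8 CPM against 47.9 and 73.6 CPM, and its log2 fold change was -0.42, or -0.30 with the correction.

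Of 24 calcium pumps and cation-coupled carriers, 23 were tested, 0 were called and 4 had log2 fold changes above 0, with a median of -0.23. With the length correction the median was -0.08. Atp2a2, a calcium pump of the endoplasmic reticulum, had 440 and 347 CPM after vehicle and 369 and 301 CPM after cisplatin, at a log2 fold change of -0.23 (edgeR adjusted p = 0.778). Slc12a2, the sodium potassium chloride cotransporter that loads sensory neurons with chloride, had 257 and 337 CPM against 146 and 268 CPM, at a log2 fold change of -0.52 (edgeR adjusted p = 0.641). Atp2b1, a plasma membrane calcium pump, had 114 and 76.6 CPM against 67.8 and 60.1 CPM, at a log2 fold change of -0.57 (edgeR adjusted p = 0.533). After the length correction Atp2a2 was at 0.06, Slc12a2 at -0.26 and Atp2b1 at -0.41. The bicarbonate carriers Slc4a7 and Slc4a8, named after their values were seen, were the 2 genes of this list past an unadjusted p of 0.05. Both lay lower, at no more than 4.03 CPM. Slc4a8 reached 4.03 CPM in vehicle replicate 1, the library with muscle and central glia transcripts, and had 0.118 to 0.660 CPM elsewhere.

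**Figure D5:**
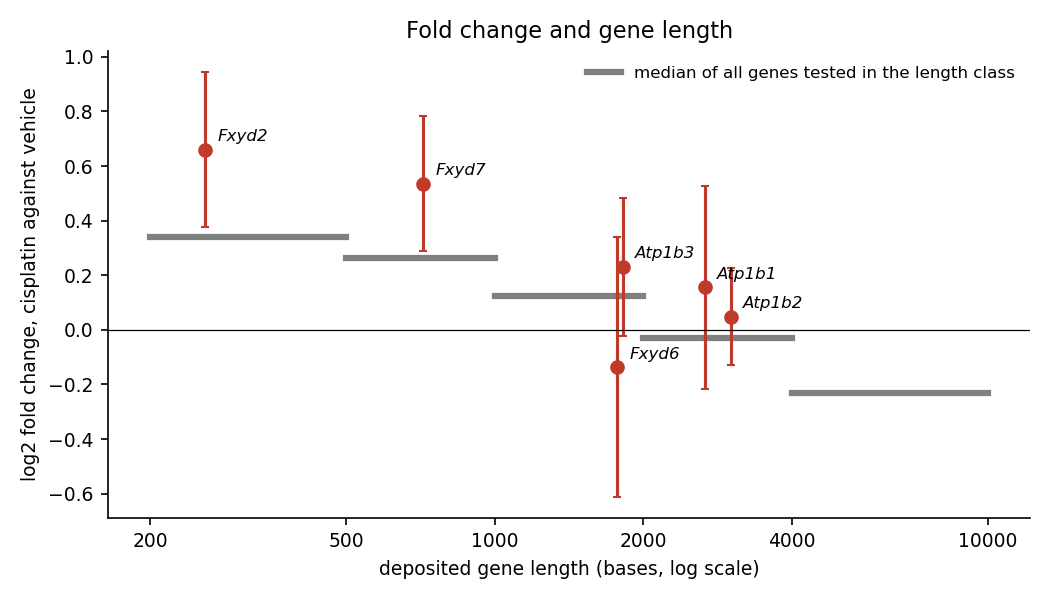
Log2 fold change of cisplatin against vehicle (vertical axis) against deposited gene length (horizontal axis, log scale). Red points are the 6 genes with standard errors, and grey lines are medians over all genes tested in 5 length classes, the first of which holds every gene of at most 500 bases. The class medians fall from 0.34 in the shortest to -0.23 in the longest class, and Fxyd2 and Fxyd7 are the shortest of the 6 genes.

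The genes most like each member were sought among 11060 genes with a mean of at least 5 CPM, by the root-mean-square difference of log2 CPM centred over the 4 libraries. The nearest to Fxyd2 were Ppp1r1c, at a difference of 0.0191, and Tppp3, at 0.0272. For Fxyd7 they were Tpgs2, at 0.0095, and RGD1565685, at 0.013. Fxyd6 was nearest to Mettl9, at 0.016, and Gal3st1, at 0.0329. The beta subunits were nearest to Mtfp1 and Pim2 for Atp1b1, to Sirt4 and Nup214 for Atp1b2 and to Nbl1 and Psmd13 for Atp1b3, at differences of 0.00253 to 0.015. From 64 genes, for Fxyd6, to 1120 genes, for Atp1b2, lay within 0.1 of a member. With 4 libraries such likeness is a description.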

How the data were processed

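Lumbar DRG RNA, selected for polyadenylated messages, was sequenced as paired reads of 150 bases. The authors mapped reads to Ensembl Rnor_6.0 with HISAT2 2.0.5 and assembled transcripts with StringTie 1.3.3b. Per the labels' processing notes featureCounts 1.5.0-p3 was among the tools, and the strand setting is not given in the sources used here. The authors deposited raw counts per gene, and FPKM values that equal the count divided by gene length times 1 constant per library.

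Protein-coding genes (22293) were filtered with edgeR's filterByExpr, which kept 14719, scaled by TMM (factors 0.938 to 1.10) and tested with edgeR 4.0.16 (glmQLFit and glmQLFTest, R 4.3.3) over all 4 libraries without a block. Each standard error was the absolute log2 fold change over the square root of F. DESeq2 1.42.0 and limma 3.58.1 on log2(FPKM + 1) and log2(FPKM + 0.1) were alternatives. The length correction was a lowess curve of span 0.3 per library, used as an offset. The fits were tested on simulated data with less dispersion than the main fit found here (common dispersion 0.0711). That test therefore does not measure their power in these libraries. Depth was 21384801 to 25618417 counts over all genes. On the CPM scale used here, of the genes tested and with TMM factors, 3 counts lay at 0.118 to 0.152 CPM. The labels number the rats within each group, and p-values measure only the spread between these libraries.

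The members and gene lists (pump genes, partners, cation carriers and 10 marker lists) were chosen with earlier results of these data known. Named genes were the members, list genes of at least 1 FPKM on average with values for at most 8 of a list by FPKM, and the 2 genes nearest to each member. Atp4a, Atp1b4, Fxyd4, Atp4b, Atp12a, Slc4a7 and Slc4a8 fall outside this rule and were named after their values were seen. Upstream letters were read from RefSeq's GRCr8 table for 3 members. Some pump genes of the list are not reported here.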

Additional observations from a re-analysis of the deposited data

How the results depend on the processing

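None of the 6 genes was called under any setting except the replicate block. Fxyd2 and Fxyd7 had a log2 fold change above 0 under all settings run, and Atp1b3 under all but the scaling to neuron markers, where it was at -0.26. That scaling, chosen after seeing the data, also reversed Atp1b1 to -0.36 and Atp1b2 to -0.44, and library size alone put Atp1b2 at -0.0024. Leaving out each library in turn, the log2 fold change ranged from -0.23 to 0.46 for Atp1b1, from -0.004 to 0.11 for Atp1b2 and from -0.79 to 0.38 for Fxyd6. It ranged from 0.35 to 0.92 for Fxyd2, from 0.33 to 0.72 for Fxyd7 and from 0.11 to 0.35 for Atp1b3, lowest in each without cisplatin replicate 1. The cause was not tested.

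Rat numbers 1 and 2 recur in both groups in the sample titles, but the deposited column names number the cisplatin-treated libraries differently. No label ties a number to a shared litter or day, so the replicate block rests on the numbering of the titles alone. The difference between replicates 2 and 1 correlated between the groups across genes (Pearson's r of 0.444 and Spearman's rho of 0.567), and genes are not independent replicates. With the replicate block, edgeR called 1532 genes in place of 1. Among them were 1 of 6 members, Fxyd2 (log2 fold change 0.64, adjusted p = 0.00677 from edgeR), 2 other pump genes, 1 of 10 pump partners and 3 of 23 cation carriers. Beside these counts, 3.36% of all genes tested were called higher and 7.05% lower. The block with the length correction called 963 genes (1.73% of all genes tested higher, 4.82% lower), 0 of 6 members and 2 of 23 cation carriers. At an unadjusted p under 0.05, 2 other pump genes, 1 of 10 partners and 2 of 23 carriers passed, beside 7.95% of all genes tested. With 1 library left out, the difference in the share of FXYD FPKM, cisplatin minus vehicle, ranged from -1.47 to 11.8 percentage points for Fxyd2, from -11.1 to -0.215 for Fxyd6 and from -0.935 to 1.94 for Fxyd7. For the share of beta FPKM it ranged from -5.28 to 2.65 for Atp1b1, from -0.835 to 0.174 for Atp1b2 and from -1.90 to 5.18 for Atp1b3, so that the sign turned for every member but Fxyd6.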

Other observations

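An assembled transcript without a gene name lies 3232 bases downstream of Fxyd2 on the same strand (chromosome 8, 49720188 to 49723478, Rnor_6.0). It had 683 and 310 counts in vehicle replicates 1 and 2, and 833 and 399 counts in cisplatin replicates 1 and 2. These were 13.5% and 9.97% of the Fxyd2 counts after vehicle, and 9.6% and 7.42% after cisplatin. Replicate 1 was higher than replicate 2 in both groups, as for Fxyd2 itself. The treatment groups overlapped in counts, unlike those of Fxyd2 in CPM.

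The summed FPKM of Fxyd2, Fxyd6 and Fxyd7 was 1.59 and 1.97 times the summed beta FPKM in vehicle replicates 1 and 2, and 2.11 and 2.31 times in cisplatin replicates 1 and 2. The groups did not overlap, and the two-sided exact permutation p of 0.333 (n = 2 each) is the smallest this design can give. The ratio rests on the deposited length of 258 bases for Fxyd2. It also sets short genes over longer ones. Over all genes tested, the median log2 fold change was 0.34 in the length class of Fxyd2 and 0.26 in that of Fxyd7. It was 0.125 in the class of Fxyd6 and Atp1b3, and -0.03 in that of Atp1b1 and Atp1b2. The part of gene length in the ratio was not tested, and no such ratio was computed for other genes.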
